A study of Mus musculus with 2 samples.

Results

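The genes described here are 10 regulators of heart and lateral plate mesoderm: Mesp1, Gata4, Gata6, Hand1, Hand2, Nkx2-5, Isl1, Mef2c, Msx1 and Smarcd3. They were chosen by symbol in the array's probe annotation, with the brightest probe kept for each gene. Of the 10 genes, 8 had a probe under their symbol, 1 probe each, out of 16444 genes with a symbol. Nkx2-5 and Mef2c matched no probe by symbol or by any synonym in the RefSeq gene table, and are not analysed here. All 8 probes were above background on both arrays, which was so for 13753 of the named genes.

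RNA came from mouse embryonic stem cells that had been grown on OP9 cells, a bone marrow stromal line that favours blood formation, and then sorted by flow cytometry for Flk-1 on the surface. In the gene-trapped sample both alleles of AU019823 were disrupted by trapping, in which a cassette inserted in the gene cuts its transcripts short. The other sample was its revertant, whose genotype the labels call nearly wild-type. No further allele or agent is named for either sample. The sample descriptions give day 4.5 for both, whereas the protocol gives 4 days of coculture, and they give 350000 cells for the revertant and 300000 for the gene-trapped sample. Each sample was labelled with Cy5 and measured on 1 array, so no difference has a replicate check, and no test, p-value or standard error could be given. The 2 samples carry different short codes in their descriptions, so if the codes name clones, the effects of clone and of genotype cannot be told apart.

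Heart muscle descends from mesoderm that leaves the primitive streak, passes through a Flk-1-positive stage shared with blood and vessel precursors, and settles in the anterior lateral plate. Mesp1, a basic helix-loop-helix factor, acts in the first of these steps. The zinc finger factors Gata4 and Gata6, the homeodomain factors Nkx2-5 and Isl1, the MADS-box factor Mef2c and the basic helix-loop-helix factors Hand1 and Hand2 act in the cardiac progenitors that follow. Smarcd3 encodes BAF60C, a subunit of the SWI/SNF chromatin remodelling complex that works with these factors in the heart, and Msx1 encodes a homeodomain factor that responds to BMP signals in lateral and extraembryonic mesoderm.

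Signals are medians of spot brightness. A probe was taken as above background where its signal exceeded the mean of the blank spots by more than 2 SD, which set the limit at 24.99 for the revertant and 22.3 for the gene-trapped array. The median probe signal was 47.5 and 38.6, so the revertant array was brighter as a whole, and raw signals are given below with values normalized between the arrays. Normalized values are on the log2 scale after a background model with an offset of 50, and differences are gene-trapped minus revertant. The SD of the log2 ratio over 24 spots of a positive control was 0.11 for one control and 0.10 for the other, which is a spread between spots and not between cultures. AU019823 itself had raw signals of 486 and 297 and a log2 difference of -0.39. Where its probe lies relative to the trap is not known, so the labels cannot be checked by it. Flk-1 is the product of Kdr, which was well above background in both samples, with raw signals of 1025 and 537 and a log2 difference of -0.65, which was -2.04 with the local background subtracted.

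The 8 measured regulators did not share a direction. Mesp1, Gata6, Gata4 and Msx1 were higher in gene-trapped cells, with log2 differences from 0.13 to 0.51. Smarcd3, Hand1, Hand2 and Isl1 were lower, with differences from -0.78 to -0.09. None of the 8 reached a 2-fold difference in either direction, where 0.334% of all named genes above background were higher by at least 2-fold and 1.08% lower by that size. At 1.5-fold, a size chosen after the values were seen, 1 of 8 was lower (Smarcd3) against 3.52% of all genes, and 0 were higher against 2.28%. Their median difference was 0.02, and that of all 13753 genes was 0.01. Taken without sign, the median was 0.24 for the members and 0.09 for all genes. The offset shrinks the differences of dim genes, so this comparison depends on brightness. Differences above 0 were found in 4 of 8 members and in 53.3% of all genes. In bulk RNA of this kind, fewer cells of a type and less RNA per cell cannot be told apart.

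**Figure D1:**
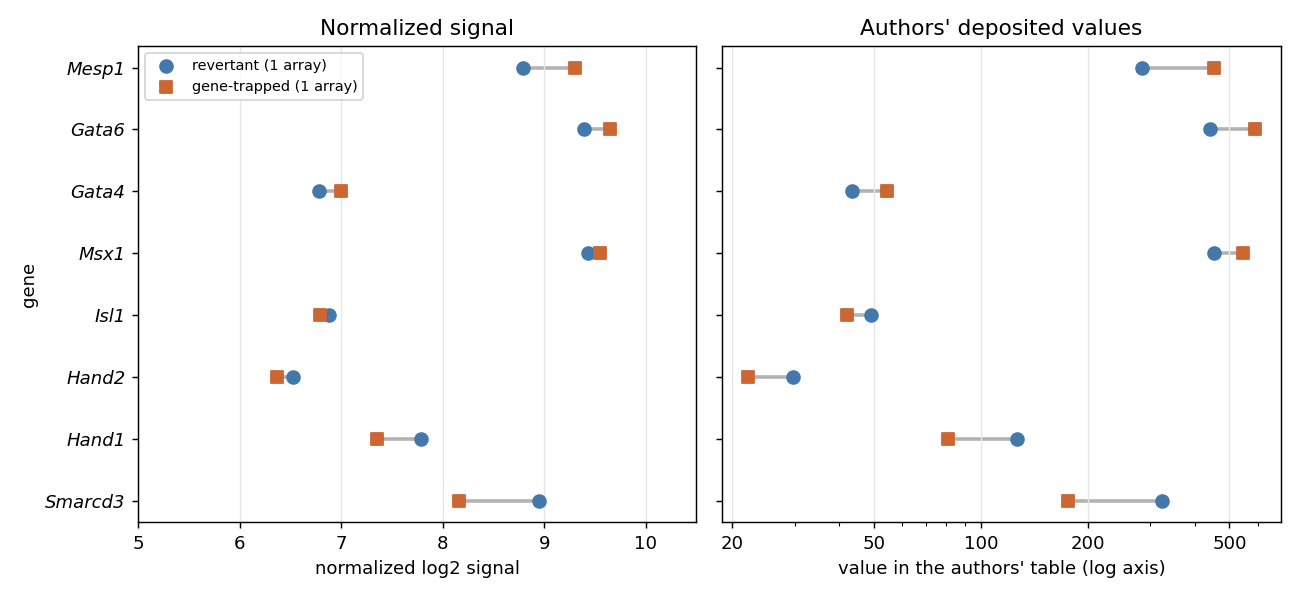
Level of each measured regulator on the revertant array (circles) and the gene-trapped array (squares), as normalized log2 signal on the left and as the value in the authors' deposited table on a log axis on the right; each point is 1 array and there are no error bars. The upper 4 genes lie to the right in gene-trapped cells and the lower 4 to the left, on both scales, with the widest gap at Smarcd3 (log2 8.95 against 8.17).

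Mesp1, which marks nascent cardiovascular mesoderm, had the highest difference of the 8. Its raw signal was 455 in revertant and 550 in gene-trapped cells, far above both background limits, and its normalized log2 signal was 8.79 and 9.30. The difference of 0.51 is 1.43-fold higher in gene-trapped cells. In the authors' deposited table Mesp1 had 284 and 452, which is 1.59-fold higher. Among the 500 genes nearest to it in mean signal the central 90% of differences ran from -0.78 to 0.61, and Mesp1 lay above 90.4% of them, so its difference was within the range of genes of like brightness. Its paralogue Mesp2, known from the segmenting paraxial mesoderm, had raw signals of 115 and 105 and a difference of 0.19.

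The sequences before the start sites of Mesp1 and Smarcd3 are shown because these genes lay at the upper and lower ends of the 8 differences. Each is the 250 bases before a RefSeq start on build GRCm38.p6, minus strand, written 5′ to 3′, and capitals mark each match to the E-box CANNTG, the motif bound by basic helix-loop-helix factors such as those of the Mesp and Hand families. The Mesp1 window is chr7:79793591-79793840 and the Smarcd3 window chr5:24602003-24602252. The Smarcd3 window lies at a start inside the gene's annotated range and not at its outer end.
Mesp1: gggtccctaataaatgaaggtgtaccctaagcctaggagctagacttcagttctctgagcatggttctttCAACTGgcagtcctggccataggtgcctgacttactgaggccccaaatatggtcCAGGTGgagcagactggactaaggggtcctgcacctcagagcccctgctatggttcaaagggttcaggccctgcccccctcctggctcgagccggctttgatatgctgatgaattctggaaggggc
Smarcd3: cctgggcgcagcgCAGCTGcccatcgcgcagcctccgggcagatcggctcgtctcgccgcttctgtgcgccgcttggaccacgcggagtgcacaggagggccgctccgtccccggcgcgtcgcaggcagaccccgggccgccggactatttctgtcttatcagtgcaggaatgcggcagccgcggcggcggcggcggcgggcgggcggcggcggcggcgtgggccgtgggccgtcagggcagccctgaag

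The Mesp1 window held 2 E-boxes, beginning 180 and 126 bases before the start, and the Smarcd3 window held 1, beginning 237 bases before it. CANNTG reads the same on both strands, and 66.2% of 32851 windows of the same length in the table hold at least 1 match. The GATA core GATAA, searched on both strands, was matched once in the Smarcd3 window, 94 bases before the start, and not in the Mesp1 window. Of all windows, 22.6% hold it, and the Smarcd3 match did not overlap the E-box. Of the 8 measured regulators, 5 have a window in the table: besides these, Hand2 held 2 E-boxes and 2 GATAA matches, Isl1 1 and 1, and Msx1 1 and 0. The matches describe letters in these windows only.

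Both GATA factors of the cardiac lineage had small positive differences. Gata4 had raw signals of 88.5 (revertant) and 84.1 (gene-trapped) and normalized log2 signals of 6.78 and 6.99. Its difference of 0.21 is 1.16-fold higher in gene-trapped cells, and it lay above 82.8% of the 500 genes nearest in signal. The raw reading was lower on the gene-trapped array, so Gata4 was higher there only after normalization for the overall brightness of the arrays. Gata6 had raw signals of 695 and 712 and normalized log2 signals of 9.39 and 9.65, a difference of 0.26 or 1.20-fold higher, above 73.6% of its 500 neighbours. The authors' deposited table had 43.4 and 54.6 for Gata4 (1.26-fold higher) and 442 and 591 for Gata6 (1.34-fold higher). For both genes the difference was within the central 90% of genes of like brightness.

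The other GATA genes of the array went different ways. Gata1, the erythroid and megakaryocytic factor, had raw signals of 137 and 50.9 and a difference of -0.77, or 1.71-fold lower. Gata2, a factor of blood progenitors and endothelium, had 159 and 87.3 and a difference of -0.40. With the local background subtracted the differences of Gata1 and Gata2 were -0.47 and -0.035. Gata3 had a difference of 0.14. Gata5, which acts in endocardium and endoderm, had raw signals of 28.7 and 25.3, close to the background limits, and a difference of 0.02.

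Hand1 and Hand2 were both lower in gene-trapped cells in the normalized values. Hand1, which acts in lateral and extraembryonic mesoderm and the left ventricle, had a raw signal of 214 in the revertant sample and 115 in the gene-trapped sample. Its normalized log2 signal was 7.79 and 7.35, a difference of -0.44 or 1.35-fold lower, and 8.40% of the 500 nearest genes lay below it. The authors' deposited table had 126 and 80.9, or 1.56-fold lower. Hand1 was the one member whose sign turned with the processing: with the scanner's local background subtracted it had a difference of 0.14. At the Hand1 spot the local background reading was 191 and 83.2 in the same order, 89.0% and 72.3% of the spot median, which left 23.6 and 31.8 after subtraction.

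Hand2, known from the right ventricle, the branchial arches and the limb bud, was the dimmest of the 8 relative to background, at 2.71 and 2.07 times the limit of its array. It had raw signals of 67.6 and 46.0 and normalized log2 signals of 6.52 and 6.37. The difference of -0.15, or 1.11-fold lower, lay within the central 90% of its neighbours, from -0.29 to 0.33. In the authors' deposited table Hand2 had 29.7 and 22.1, or 1.34-fold lower, and with the local background subtracted its difference was -0.0049.

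In the main normalized values the homeodomain genes Isl1 and Msx1 differed least between the samples. Their differences were -0.22 and 0.27 in the authors' deposited table, and -0.20 and 0.30 with the local background subtracted. In the latter setting Hand2, at -0.0049, differed least. Isl1, a marker of second heart field progenitors, had raw signals of 97.1 and 69.5 and normalized log2 signals of 6.88 and 6.79, a difference of -0.09. That is smaller than the SD of 0.11 between spots of a positive control. Isl2 had raw signals of 28.6 and 23.0, close to background, and a difference of -0.05. Msx1 had raw signals of 713 and 660 and normalized log2 signals of 9.43 and 9.55, a difference of 0.13 or 1.09-fold higher, above 62.6% of its 500 neighbours. As for Gata4, the raw reading of Msx1 was lower on the gene-trapped array. Its paralogue Msx2 had raw signals of 1218 and 1048 and a difference of -0.0042. Msx3 was not above background on the gene-trapped array.

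Smarcd3, the chromatin remodelling subunit, had the largest difference of the 8 in size. Its raw signal was 513 in revertant and 227 in gene-trapped cells, both more than 10 times the background limit. Its normalized log2 signal was 8.95 and 8.17, a difference of -0.78 or 1.72-fold lower, and the authors' deposited table had 322 and 176, or 1.83-fold lower. Of the 500 genes nearest in signal 4.20% lay below it, and it was the one member outside their central 90%, which ran from -0.69 to 0.62. Over all named genes above background, 1.90% lay below it. With the local background subtracted the difference was -0.29, or 1.22-fold lower. Smarcd1, a paralogue that can take the same place in the complex, had raw signals of 72.1 and 47.3 and a difference of -0.18.

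Other SWI/SNF subunits were described by a list of 18 names, of which 13 had a probe and all 13 were above background. Their median difference was 0.00, with 7 above 0 and 6 below, and 0 of 13 were at least 2-fold apart. Phf10, a subunit of the PBAF form that is known from neural progenitors, had raw signals of 1630 and 709 and a difference of -0.94, or 1.91-fold lower, which was -0.29 with the local background subtracted. Actl6a, the actin-related subunit of dividing cells, had 0.36, Ss18 0.29 and Smarcc1 0.21. The ATPase genes Smarca4 and Smarca2 had -0.05 and -0.12. Ss18 and Smarcc1 turned to -0.33 and -0.083 with the local background subtracted.

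The gap between members does not depend on a constant added to every difference of an array. Mesp1 exceeded Smarcd3 by 1.30 on the log2 scale, and by between 0.91 and 1.54 over 9 settings that change the members' values. Mesp1 had the highest and Smarcd3 the lowest difference of the 8 in 9 of these 9 settings. As this pair holds the ends of the 8 differences, a wide gap follows from its choice. Gata6 exceeded Smarcd3 by 1.04, and by 0.67 to 1.29 over the settings. Gata4 exceeded Hand1 by 0.65, but with the local background subtracted that gap was -0.048. In the main values Gata6 exceeded Gata4 by 0.04, less than the spread between control spots. Over the settings that gap ran from -0.03 to 0.29, the latter with the local background subtracted.

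**Figure D2:**
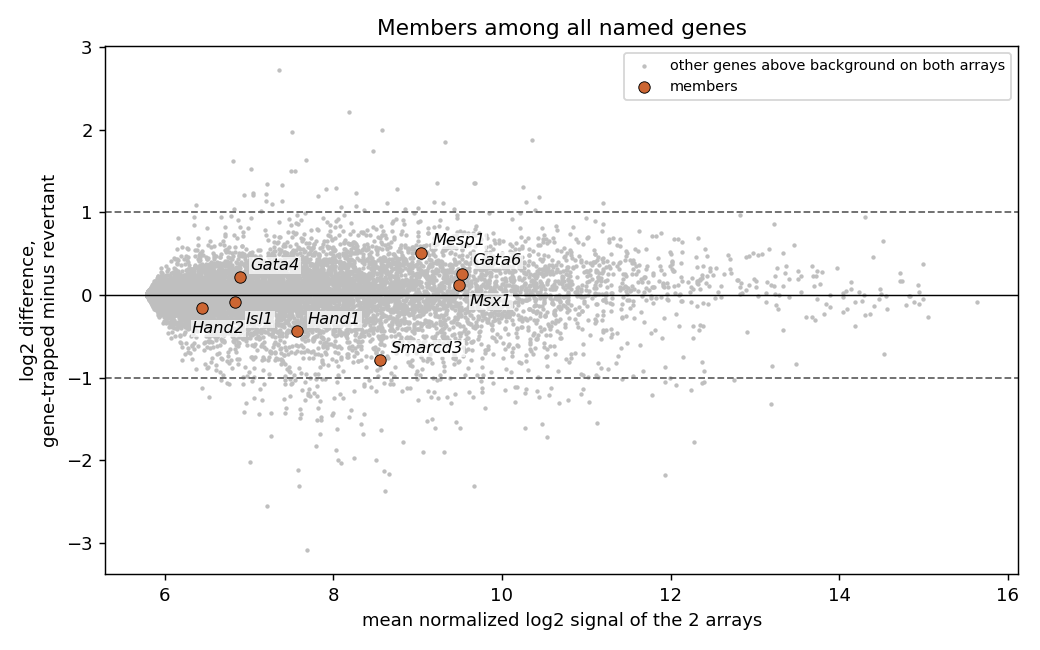
Log2 difference (gene-trapped minus revertant) against the mean normalized log2 signal of both arrays for the 13753 named genes above background, 1 grey point per gene, with the 8 members in colour and dashed lines at 2-fold. All 8 members lie between the dashed lines, from Smarcd3 at -0.78 to Mesp1 at 0.51.

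Among other regulators of cardiac and lateral plate mesoderm, a list of 49 names, 44 had a probe and 40 were above background on both arrays. Of these 1 was higher by at least 2-fold and 1 lower, 19 lay above 0 and 21 below, and the median was -0.01. Etv2, the ETS factor that directs Flk-1-positive mesoderm towards blood and endothelium, was the gene that was higher, with raw signals of 810 and 1739 and a difference of 1.30 (2.47-fold). Snai2, a zinc finger factor of mesenchymal transition, was the lower one, with raw signals of 192 and 39.6 and a difference of -1.41 (2.66-fold). With the local background subtracted Snai2 had -0.56, under 2-fold. Its paralogue Snai1 went the other way, with raw signals of 47.3 and 71.5 and a difference of 0.60. With the local background subtracted Snai1 had 0.15. Tbx20, a T-box factor of the early heart tube, had 185 and 78.0 and a difference of -0.70, or -0.14 with the local background subtracted. Tbx5, the partner of Gata4 in the first heart field, had raw signals of 32.8 and 27.0, near background, and a difference of -0.03. Tbx3 and the epicardial factor Wt1 had 0.58 and -0.33, which were 1.17 and -0.26 with the local background subtracted. The ligand genes Bmp4 and Bmp2, which pattern the lateral plate, had -0.29 and 0.43, or -0.82 and 0.42 with the local background subtracted. Foxf1a, a forkhead factor of splanchnic mesoderm, had -0.10.

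Among cardiac muscle genes, which these regulators are known to control, 3 (Tnnt2, Tnni1 and Myl4) had a larger difference in size than any of the 8 members. Of 27 names 26 had a probe and 18 were above background on both arrays, with 2 at least 2-fold lower, 0 at least 2-fold higher and a median of -0.01. Cardiac troponin T gene Tnnt2 had raw signals of 932 and 123 and a difference of -2.38 (5.19-fold lower), which was -1.47 with the local background subtracted. The slow troponin I gene Tnni1 had 316 and 87.1 and a difference of -1.27, which turned to 0.15 with the local background subtracted. The atrial and embryonic light chain gene Myl4 had -0.87 and the troponin C gene Tnnc1 -0.70. Atp2a2 had raw signals of 1121 and 617 and a difference of -0.60, or 0.09 with the local background subtracted. Des had -0.36, which was -1.01 in the authors' deposited table and 0.07 with the local background subtracted. Tpm1, a tropomyosin gene expressed in many cell types, had 0.70, or 1.16 with the local background subtracted. The atrial light chain gene Myl7 had -0.01, or 0.35 with that subtraction. Myl3, a ventricular light chain gene, was the brightest of the list, with raw signals of 6008 and 5107 and a difference of 0.10, which was 3.04 with the local background subtracted. The natriuretic peptide gene Nppb had raw signals of 48.0 and 42.1 and a difference of 0.06. The cardiac troponin I gene Tnni3 had 64.3 and 43.7 and a difference of -0.15. Nppa (raw signals 28.04 and 24.05), Myh6 (26.4 and 23.6), Ryr2 (27.7 and 26.3) and Actn2 (27.1 and 23.02) were above background but close to the limits. On the revertant array these genes lay below a stricter limit of 5 SD, which was 28.8. Pln (36.2 and 28.5) was also above background on both arrays, whereas Myl2, Myh7, Ttn, Mybpc3, Casq2, Slc8a1, Hcn4 and Gja5 were not. In the authors' deposited table the list's median log2 ratio was -0.21. With only genes above the 5 SD limit kept, the list's median difference was -0.15, so the median of -0.01 depended on genes near background.

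**Figure D3:**
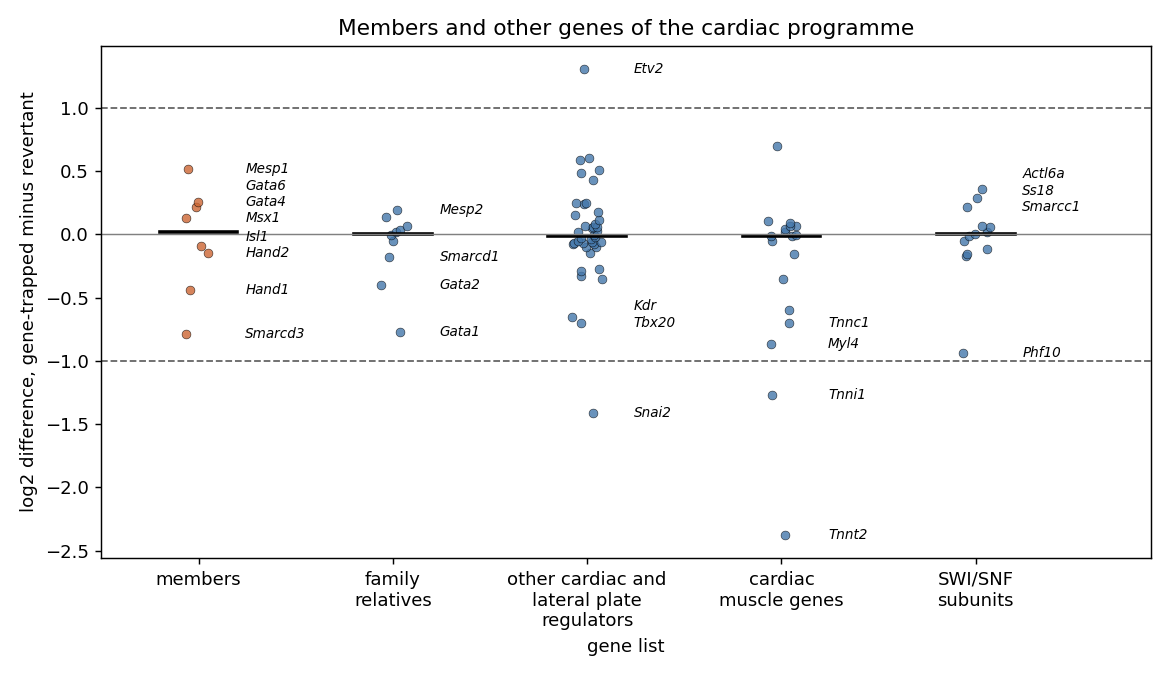
Log2 difference of each gene above background on both arrays (points), by list, with the list's median as a black bar, labels for the genes of the naming rule and dashed lines at 2-fold; each point compares 1 array per group. The medians of the 5 lists lie between -0.01 and 0.02, while Etv2, Snai2, Tnni1 and Tnnt2 lie outside the dashed lines.

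Gata4, Gata6 and Msx1 are also expressed outside the heart, so lists of other cell types that the gate could hold were measured beside them. Of 18 endoderm names 14 had a probe and 9 were above background on both arrays, with a median of -0.02 and 2 above 0. Afp, Ttr, Foxa1, Cer1 and Apoa1 were not above background on both arrays, whereas Foxa2 (raw signals 27.4 and 27.2), Hnf4a (29.5 and 25.02), Amn (33.9 and 27.6) and Sox17 (41.1 and 28.3) were. The summed value of the list in the authors' deposited table was 213 in revertant and 195 in gene-trapped cells. Without Pdgfra, which is also on the list of other cardiac and lateral plate regulators, the sum was 113 and 97.9. Sox7 had 0.28, Sox17 -0.14, Dab2 -0.23 and Trf -0.47. Of 20 stromal and fibroblast names 18 were above background, with 3 at least 2-fold lower (Col5a1 -1.61, Col1a1 -1.49 and Acta2 -1.30), 0 at least 2-fold higher, 12 below 0 and a median of -0.32, the same direction as Hand1, Hand2 and Smarcd3. Col3a1 had -0.79, or -0.12 with the local background subtracted. The summed value of the stromal list was 8702 in revertant and 7901 in gene-trapped cells. Without Fn1, its brightest gene, which had a difference of 0.36, the sum was 6318 and 4633. The part of stromal cells in the differences of Hand1, Hand2 and Smarcd3 was not tested.

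Markers of the neighbouring fates of Flk-1-positive mesoderm also differed between the samples. Primitive streak genes, which mark the origin of Mesp1-positive cells, had a median of 0.51 over 10 genes above background, in the direction of Mesp1: 8 lay above 0, Mixl1 had 1.99 and Gsc 1.5, and the list's summed value was 1053 in revertant and 2258 in gene-trapped cells. Endothelial genes had a median of -0.56 over 9 genes, with 3 lower by at least 2-fold (Flt1 -1.53, Tek -1.31 and Pecam1 -1.27), Eng at 0.72 and summed values of 2089 and 1070. Blood genes had a median of -0.58 over 10 genes, with Epor at -1.08 and summed values of 566 and 281. Both lists lay in the direction of Smarcd3 and Hand1. With the local background subtracted the endothelial and blood medians were -0.17 and -0.15, and in the authors' deposited table -1.56 and -1.51. Epor (-0.14), Pecam1 (-0.95), Gsc (0.91), Otx2 (0.78) and Dppa5 (-0.079) were under 2-fold with the local background subtracted. Neuroectoderm and neural crest genes, which share Msx1, had summed values of 296 and 507, or 218 and 259 without Otx2. Their median was 0.09 over 9 genes, with Otx2 at 1.29. Pluripotency genes had 0.10 over 6 genes, with Tdgf1 at 1.88, Dppa5 at 1.21, Nanog at 0.03 and Klf4 at -0.36. Tdgf1 had 3.33, Nanog -0.45 and Klf4 -1.57 with the local background subtracted. The summed values of the pluripotency list were 1211 and 2648, and 761 and 747 without Tdgf1. The part of these shifts in the members' differences was not tested.

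The sign of 7 of the 8 members was kept over the 9 settings that change their values. Mesp1 ran from 0.40 to 0.67, Gata6 from 0.18 to 0.42, Gata4 from 0.09 to 0.33 and Msx1 from 0.03 to 0.30. Smarcd3 ran from -0.93 to -0.29, Isl1 from -0.22 to -0.05 and Hand2 from -0.43 to -0.0049. Hand1 ran from -0.64 to 0.14 and was below 0 in 8 of 9 settings. No member reached 2-fold in any of them. The settings share the same 2 arrays, so a kept sign says nothing of how other cultures would behave.

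**Figure D4:**
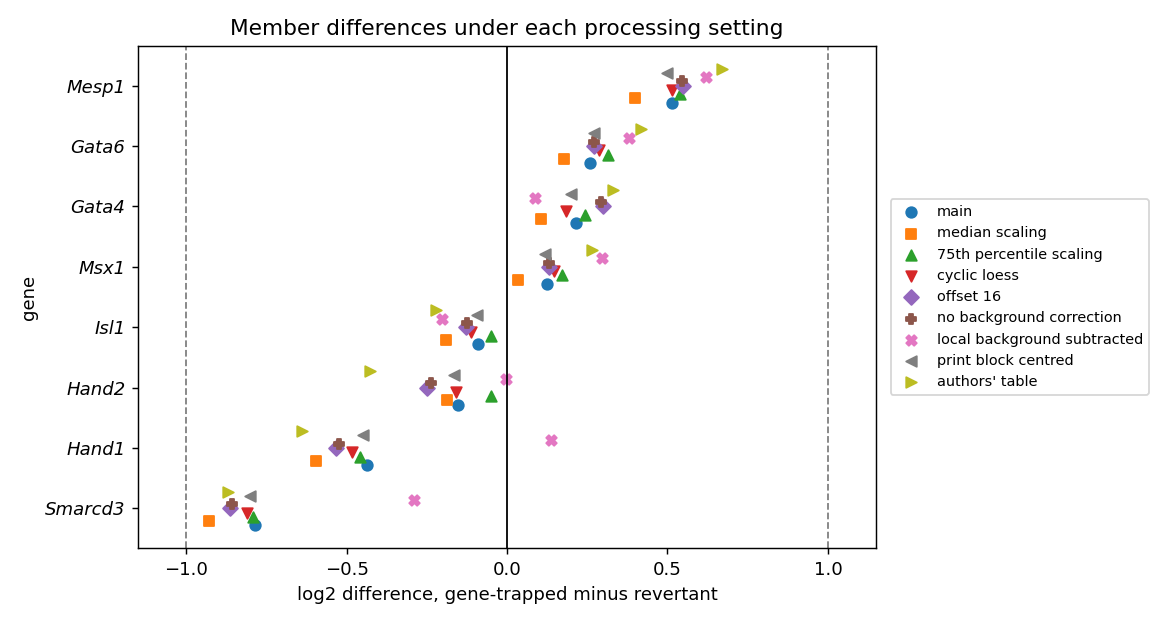
Log2 difference (gene-trapped minus revertant) of each member under 9 processing settings, 1 symbol per setting, with dashed lines at 2-fold. All symbols lie between the dashed lines, Mesp1, Gata6, Gata4 and Msx1 stay to the right of 0 and Smarcd3, Isl1 and Hand2 to the left, and Hand1 crosses 0 only with the local background subtracted, at 0.14.

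**Figure D5:**
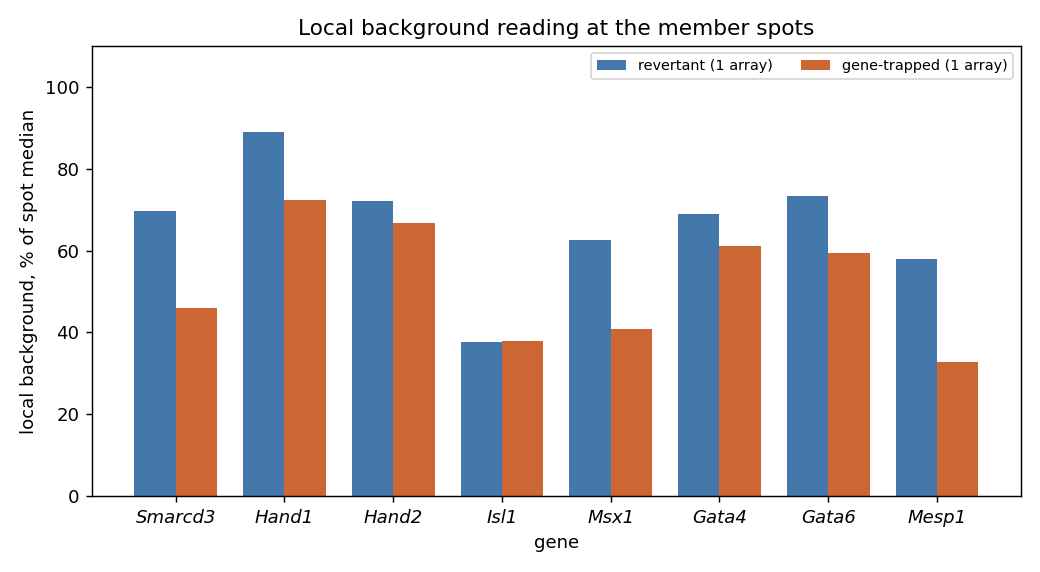
Local background reading as a percentage of the spot median at each member's spot, on the revertant and the gene-trapped array (1 bar per array, no error bars). The percentage is higher on the revertant array at 7 of 8 spots, is highest at Hand1 (89.0% and 72.3%), and at Isl1 is 37.8% and 37.9%.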

How the data were processed

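RNA from 2 samples was amplified with an amino allyl kit, coupled to Cy5 and hybridised to TORAY arrays, per the labels' protocols. Per the file headers, the authors deposited spot medians and local background medians as linear intensity at 635 nm, read at 3 gains and joined by least squares. Which scanner was used is not given in the sources used here. Processed values, again linear intensity, were deposited as a table. That table follows the spot median less about the blank mean, scaled to a column median of 25.

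Spot medians were corrected with normexp (offset 50) and quantile-normalized in limma 3.58.1 (R 4.3.3), then put on the log2 scale. The step was tested on simulated data with changes of at least 2-fold, placed only in bright probes. That test does not cover dim genes such as Gata4, Hand2 and Isl1, or differences as small as those of the members. The background model was fitted over all spots, control and blank spots included. Control spots and 2 probes with a quality mark were left out before the normalization between arrays. Tables and plots used Python 3.11.15 with pandas 2.3.3, numpy 2.4.6 and matplotlib 3.10.9. Of 23473 probes 16631 have 1 symbol and 6842 none. Depth is limited by the number of arrays, 1 per group.

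Named genes are the members, AU019823, Kdr, up to 4 genes with the largest difference of each list and all list genes at least 2-fold apart. Family relatives and partners, Tpm1, Myl3, Myl7, Nppb, Tnni3, Nanog, Klf4, the heart muscle and endoderm genes listed as above background, Gata3, Gata5, Isl2, Msx2, Msx3, Tbx3, Tbx5, Wt1, Bmp2, Bmp4, Foxf1a, Smarca2, Smarca4 and the genes not above background were added after values were seen. Snai1, Pdgfra, Fn1, Atp2a2 and Des were also added after values were seen. Members and lists were chosen with earlier results of these data known. With 2 arrays no genes could be ranked by likeness of pattern. Of the alternatives, 10 were listed at the outset: median, 75th percentile and cyclic loess normalization, offset 16, no background correction, subtraction of the local background, the authors' table, the mean of a gene's probes, no filter and a limit of 5 SD. Centring of each of 24 print blocks was added later. The 9 settings quoted for members are the main one and the 8 that can change a member's value.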

Additional observations from a re-analysis of the deposited data

Results flagged for a closer look

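The local background readings of the scanner, left out of the normalized values, were far higher at the member spots than at blank ones. Over the 8 spots the median reading was 227 in the revertant sample and 93.6 in the gene-trapped sample, where blank spots had 14.2 and 15.6. It ran from 36.7 at Isl1 to 509 at Gata6 in the former and from 26.3 to 423 at the same genes in the latter. Over all 23471 probes these readings followed the spot median, with log2 correlations of 0.97 and 0.96 given as a description, since probes of an array are not independent.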

How the results depend on the processing

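No paired analysis was possible because there is 1 array for each group. Over 11 alternatives the members' median difference, 0.02 as reported, ran from -0.076 under median scaling to 0.11 with the local background subtracted, and 0 members were at least 2-fold higher or lower in each. Each member has 1 probe, so averaging probes changed none of their values, and neither filter removed a member. Under 75th percentile scaling the median of all genes was 0.15, and Msx1 and Gata4, at 0.17 and 0.24, lay close to it. With the local background subtracted, Hand1 had 0.14, Tnni1 turned to 0.15 and Dppa5 to -0.079. The cause was not tested. In the authors' deposited table, whose background step and scaling differ as well as the offset, genes at least 2-fold higher numbered 253 and lower 538, against 46 and 148. With the local background subtracted they numbered 280 and 185, with offset 16 they were 87 and 238, and without background correction 84 and 227. By construction the offset shrinks the differences of dim genes. Centring each print block, added after the data were seen, changed no sign among the members. The cardiac muscle median moved to -0.21 in the authors' table and to -0.15 under the stricter filter.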
